A study of Sus scrofa with 6 samples.

Results

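The miR-17, miR-18, miR-20 and miR-106 families were measured in the left atrium (LA) of pigs after brief atrial pacing. The array carried 322 probes for pig mature miRNAs, and 7 of them carry names of these families: ssc-miR-17-5p, ssc-miR-17-3p, ssc-miR-18a, ssc-miR-18b, ssc-miR-20a, ssc-miR-20b and ssc-miR-106a. No probe carries the name miR-93. The prefix ssc-, which stands for pig, is left out below. One group is of 3 paced animals, labelled PAF, in which bursts of rapid right atrial pacing induced short self-terminating paroxysms of atrial fibrillation (AF). The other is of 3 sham animals, labelled Control, which were sham-operated without burst pacing. Animals were anaesthetized, and esmolol, a beta blocker against ventricular arrhythmia, was given before pacing, and whether the sham animals received it is not stated. The labels name no genetic change. The arrayed animals were some of each group of the study. Tissue was taken the next day, once normal rhythm had returned, so the values describe an early and brief model of AF. The labels describe neonatal piglets while the study's methods describe Large White pigs of several months, and the age therefore remains unsettled. Each animal gave 1 array of total LA RNA, 1-colour with Cy3.

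These miRNAs are cut from short hairpins that lie in a row on shared primary transcripts. In the Sscrofa11.1 gene table the genes MIR17, MIR18A, MIR19A, MIR20A, MIR19B-1 and MIR92A-1 follow each other on chromosome 11, which is the cluster named after miR-17 and miR-92a. Its paralog on chromosome X holds MIR363-1, MIR92A-2, MIR19B-2, MIR20B-1, MIR18B and MIR106A. The arrays name no genome build, so no coordinates are given. The clusters are known for driving cell division and cell survival and are active in many cell types, blood cells among them. The cluster of miR-17 and miR-92a is needed for normal growth of the embryonic heart. A miRNA finds its targets mainly through its seed, bases 2 to 8 from the 5′ end. miR-17-5p, miR-20a, miR-20b and miR-106a repress regulators of the cell cycle and of apoptosis such as CDKN1A, E2F1 and BCL2L11. miR-18a and miR-18b differ from them by a base within the seed, and miR-18a is known to repress the matrix protein gene CCN2. miR-17-3p comes from the other strand of the miR-17 hairpin and has a seed of its own.

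The sequences below are the targets that the array's design gives for the 7 probes, 5′ to 3′, with the seed in capitals. They are shown because shared seeds and near-identical probes decide which values can be read as separate miRNAs.
miR-17-5p: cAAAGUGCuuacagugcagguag
miR-20a: uAAAGUGCuuauagugcaggua
miR-20b: cAAAGUGCucacagugcagguag
miR-106a: aAAAGUGCuuacagugcagguagc
miR-18a: uAAGGUGCaucuagugcagaua
miR-18b: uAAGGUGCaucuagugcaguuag
miR-17-3p: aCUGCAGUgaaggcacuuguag

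The seed AAAGUGC occurred in 4 of the 322 probes, all of them members. AAGGUGC occurred in 2, which were miR-18a and miR-18b, and CUGCAGU in 1. With positions counted from the 5′ end of miR-17-5p over the shared length, miR-20b differed from it by U10C, miR-106a by C1A, and miR-20a by C1U and C12U. miR-18b differed from miR-18a by A20U. Outside the families the closest probe, with shifts of up to 2 bases counted as differences, was 7 differences away (miR-151-5p, from miR-20b). Whether RNA of one member also bound the probe of its nearest relative was not tested, so the values of miR-17-5p, miR-20b and miR-106a, and those of miR-18a and miR-18b, are not shown to be separate measurements.

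The arrays differed in background. The median signal of the 786 empty spots was 64.7 to 214.1 scanner units on the sham arrays and 242.5 to 399 units on the paced arrays, highest in paced replicate 1. To count as well above background, the 9 repeat spots of a probe had to have a median more than 3 SD (of the empty spots) over that of the array's empty spots, which 104 probes reached on all 6 arrays. Of the heart muscle miRNAs, miR-1, miR-133a-3p, miR-133b and miR-499-5p were well above background on all 6 arrays and miR-208b on 5. Of the miRNAs typical of other organs, miR-122 of liver and miR-9 of neural tissue were above it on none, while miR-192 was above it on 2 arrays and miR-194a on 3. LA tissue holds several cell types, and in such bulk samples fewer cells of a type and less RNA per cell cannot be told apart.

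The 4 members with the seed AAAGUGC were well above background on all 6 arrays, and none of them differed between paced and sham animals beyond the spread between animals. Values are normalized log2 signals, in which a difference of 1 is a doubling of the background-corrected signal with an offset of 50 added. For a dim probe that is not a doubling of its own signal. Differences are paced minus sham from limma over all 322 probes, with Benjamini-Hochberg adjustment.

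miR-17-5p, the main arm of the first hairpin of the chromosome 11 cluster, gave 10.20, 10.02 and 10.14 in the sham animals and 10.35, 10.09 and 10.03 in the paced animals, each in the order of replicates 1 to 3 as in all lists below. The groups overlapped, with the highest value in paced replicate 1 and both other paced animals inside the sham range. The difference was 0.03 (SE 0.10, 95% interval -0.21 to 0.28, adjusted p = 0.922).

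miR-20a, from the same transcript, had the widest spread. Sham animals had values of 10.56, 10.39 and 10.53, and paced animals had values of 10.94, 10.25 and 10.21. Paced replicate 1 lay above all sham animals and the other paced animals lay below all of them. The difference of -0.03 (SE 0.20, 95% interval -0.49 to 0.44, adjusted p = 0.964) is the mean of these opposite deviations. Without paced replicate 1 it was -0.26 (unadjusted p = 0.0128, adjusted p = 0.103). One of the 9 repeat spots in sham replicate 1 read 8.36 while the other 8 read 10.78 to 10.88. With the median of the repeat spots that animal had a value of 10.82 and the difference was -0.15 (adjusted p = 0.911).

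miR-20b, the chromosome X relative of miR-20a, had sham values of 10.30, 10.10 and 10.25 and paced values of 10.46, 10.22 and 10.23. Only paced replicate 1 lay outside the sham range. The difference was 0.08 (SE 0.10, 95% interval -0.14 to 0.31, adjusted p = 0.778).

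miR-106a, also from the chromosome X cluster, had sham values of 9.77, 9.66 and 9.71 and paced values of 9.95, 9.57 and 9.55. As for miR-20a, paced replicate 1 lay above the sham range and both other paced animals below it. The difference was -0.02 (SE 0.12, 95% interval -0.30 to 0.26, adjusted p = 0.964).

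All 4 intervals included 0, and together they spanned -0.49 to 0.44. With 3 animals in each group, changes within a probe's own interval were not excluded. Within-group SDs of the sham animals were 0.06 to 0.10. Those of the paced animals were 0.14 for miR-20b, 0.17 for miR-17-5p, 0.22 for miR-106a and 0.41 for miR-20a. The sham SD of miR-20a, 0.09, and its pooled SD use the value of 10.56 in sham replicate 1. The low spot is part of that value, and the median of the repeat spots there was 10.82. Ranked with the 104 probes that passed the background criterion on every array, the pooled within-group SD of miR-20a was at the 91.3rd percentile, and those of miR-20b, miR-17-5p and miR-106a at the 24.0th, 38.5th and 51.0th. The repeat spots of these 4 probes had a median SD of 0.09 to 0.13 on an array, or 0.03 to 0.04 as the error of their mean, and the error of that mean reached 0.27 for miR-20a in sham replicate 1.

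**Figure D1:**
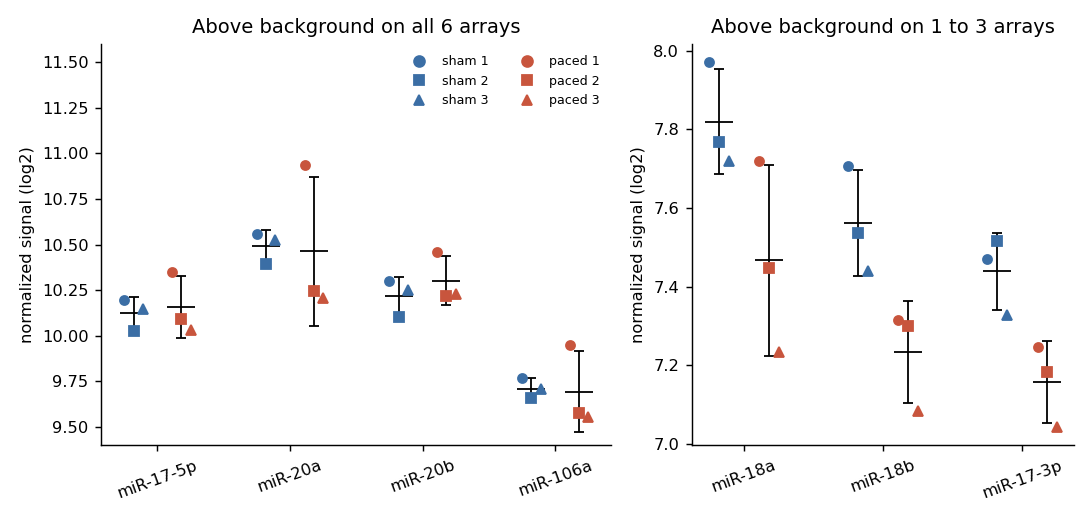
Normalized log2 signal of the 7 probes in each animal (symbols are replicates 1 to 3, blue for sham and red for paced), with the group mean and SD as black bars; the 2 panels have different axes that do not start at 0. In the left panel paced replicate 1 is the highest point for every probe, and in the right panel miR-18b and miR-17-3p have all 3 paced values below all 3 sham values.

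miR-18a, miR-18b and miR-17-3p were dim, and all 3 had lower means in paced than in sham animals. The background criterion was met for miR-18a by 2 sham animals and 1 paced animal, for miR-18b by 2 sham animals alone, and for miR-17-3p by 1 sham animal alone. With only the 15 empty spots closest to each spot as the background, these counts became 3 and 1, 3 and 1, and 2 and 1. None of the 3 differences passed the adjusted threshold.

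miR-18a, the second hairpin of the chromosome 11 cluster, had values of 7.97, 7.77 and 7.72 in the sham animals and of 7.72, 7.45 and 7.23 in the paced animals. Paced replicate 1 and sham replicate 3 had the same value to 2 decimals, so the groups just overlapped. Group averages were 7.82 ± 0.13 for sham and 7.47 ± 0.24 for paced (SD, n = 3 each), with a difference of -0.35 (SE 0.14, 95% interval -0.68 to -0.03, unadjusted p = 0.0379, adjusted p = 0.407).

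miR-18b, its chromosome X relative, had sham values of 7.71, 7.54 and 7.44 and paced values of 7.32, 7.30 and 7.08. All paced values lay below all sham values, with a gap of 0.12. The difference was -0.33 (SE 0.10, 95% interval -0.57 to -0.09, unadjusted p = 0.0154, adjusted p = 0.323).

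miR-17-3p had sham values of 7.47, 7.52 and 7.33 and paced values of 7.25, 7.18 and 7.04. Here too the groups did not overlap, with a gap of 0.08. The difference was -0.28 (SE 0.09, 95% interval -0.49 to -0.08, unadjusted p = 0.0146, adjusted p = 0.323). miR-18b and miR-17-3p were not well above background in any paced animal, so their paced level is only bounded, and the bounds came to less than 1, so that no fold is given.

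With any 1 animal left out, the differences stayed between -0.52 and -0.23 for miR-18a, between -0.39 and -0.25 for miR-18b and between -0.34 and -0.23 for miR-17-3p, while some calls at the unadjusted threshold of 0.05 were lost. Without sham replicate 1 miR-18b was at -0.25 (unadjusted p = 0.0529), and without sham replicate 2 miR-17-3p was at -0.23 (unadjusted p = 0.0622). For miR-18a the call was lost without sham replicate 1, sham replicate 2, paced replicate 2 or paced replicate 3, with unadjusted p of 0.122, 0.0648, 0.0845 and 0.114. The methods' test, which shares no spread between probes, lost it as well. In limma it was also lost with cyclic loess (unadjusted p = 0.0601), the median of the repeat spots (unadjusted p = 0.0612) and the nearest empty spots as background (unadjusted p = 0.132). With the nearest empty spots miR-18b lost its call too (unadjusted p = 0.0778).

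Read against the whole array, 3 of the 7 members passed the unadjusted threshold and 10.6% of all probes did. All 3 were lower in paced animals, which held for 7.14% of all probes. After adjustment no member and 0% of the probes passed in limma, where 34 of the 322 probes had an unadjusted p under 0.05, and the methods' t-test also left 0 after adjustment. The values of 2 of the 7 members did not overlap between groups, against 17.4% of all probes in either direction and 10.2% with the paced animals lower. These shares depended on the number of arrays on which a probe was well above background. Among the 75 probes that were well above background on some but not all arrays, the class of the 3 dim members, 20% had lower values in paced animals at the unadjusted threshold and 22.7% had all paced values below all sham values. The median difference was -0.10 in that class, -0.03 over the 104 probes above background on all arrays, and 0.00 over all probes.

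**Figure D2:**
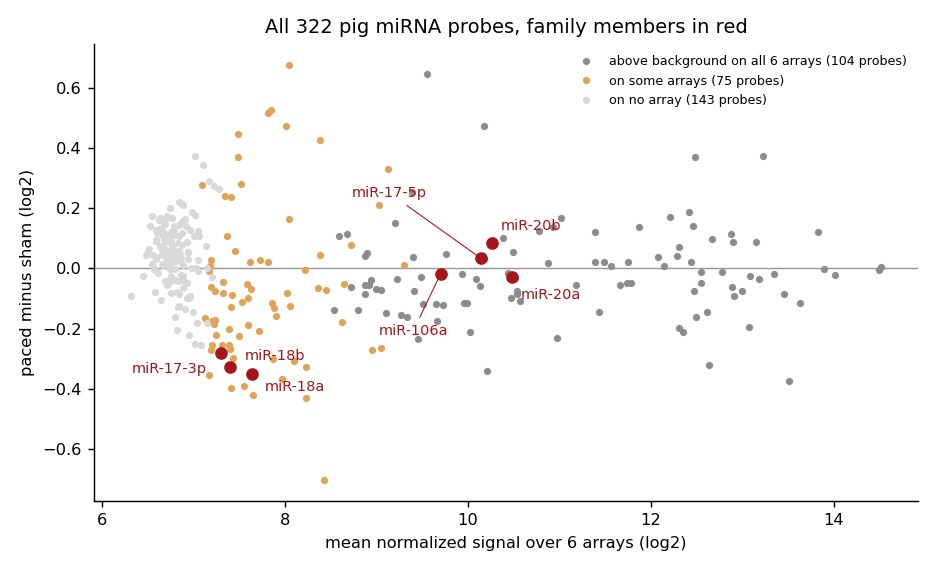
Paced minus sham difference (log2) against the mean normalized signal over the 6 arrays (log2) for all 322 probes, with grey levels and orange for the number of arrays on which a probe was well above background and the 7 members in red. miR-18a, miR-18b and miR-17-3p lie among the orange probes at -0.35, -0.33 and -0.28, and the other members lie between -0.03 and 0.08.

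The scanner signals of the dim probes followed the background closely. With the empty-spot median of each array subtracted, miR-18a read 167, 80.2 and 84.1 units in the sham animals, and 16.8, 98.3 and 15.9 units in the paced animals. miR-18b read 107, 52.7 and 52.9 units in the sham animals and -29.6, 76.2 and 9.97 units in the paced animals. For miR-17-3p the values were 56.9, 50.2 and 47.1 units, and -42.0, 63.9 and 3.58 units. Before normalization paced replicate 2 thus lay within or above the sham range for all 3 probes, while paced replicates 1 and 3 were below it for each. Empty-spot signal was higher on every paced array, and its part in the lower values was not tested. Among the blood markers, miR-451 went from 13.70 in sham to 13.33 in paced animals (unadjusted p = 0.113, adjusted p = 0.511). miR-486 went from 8.78 to 8.08 (unadjusted p = 0.00301, adjusted p = 0.134), and miR-144 was above background on no array. The summed linear level of these 3 red cell miRNAs ranged from 12198 to 17089 in sham and from 8241 to 12293 in paced animals, so the groups just overlapped. The sums of the smooth muscle miRNAs miR-143-3p and miR-145-5p did not overlap, at 18878 to 22583 in sham and 16777 to 18736 in paced animals. In limma miR-143-3p differed by -0.32 (unadjusted p = 0.0160, adjusted p = 0.323) and miR-145-5p by -0.12 (unadjusted p = 0.274, adjusted p = 0.723). The sums of the 4 miRNAs of other organs did not overlap either, at 532 to 565 in sham and 465 to 529 in paced animals. Among these miR-194a, dim like the members described here, differed by -0.27 (unadjusted p = 0.0255, adjusted p = 0.357). miR-192 differed by -0.22 (limma, unadjusted p = 0.0697). miR-122 and miR-9, above background on no array, differed by 0.02 and 0.12, so the list did not go one way. The sums of the heart muscle, white cell, endothelial and fibroblast miRNAs overlapped. Of the endothelial miRNAs, miR-126-5p was higher in paced animals by 0.37 (limma, unadjusted p = 0.0244, adjusted p = 0.357) but above background on no array. The bright miR-126-3p differed by -0.02 (limma, adjusted p = 0.935). The part of these markers in the lower values of the dim members was not tested.

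In the processed values that the authors deposited, which are linear intensities, miR-18a averaged 112 ± 21.4 in the sham group and 72.1 ± 29.0 in the paced group (SD, n = 3 each). Those of miR-18b were 79.1 ± 15.6 and 47.3 ± 13.6, and those of miR-17-3p were 63.8 ± 9.52 and 37.9 ± 10.4. All paced values of miR-18b and miR-17-3p again lay below all sham values, which was not so for miR-18a. On the log2 scale these differences were -0.71, -0.77 and -0.78 for miR-18a, miR-18b and miR-17-3p, with adjusted p of 0.598, 0.483 and 0.446 in limma. For the bright members the sham and paced means there were 1016 ± 114 and 1025 ± 215 for miR-17-5p, 1449 ± 259 and 1330 ± 516 for miR-20a, 1091 ± 119 and 1141 ± 216 for miR-20b, and 727 ± 51.2 and 754 ± 140 for miR-106a, with the group ranges overlapping.

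The direction of the dim members depended on how the arrays were brought to one scale. With each array scaled only to the median of its detected probes, the differences of miR-18a, miR-18b and miR-17-3p were 0.12, 0.21 and 0.29. The median of all probes then shifted by 0.44, so that all 3 stayed below the median probe. Without normalization between arrays they were -0.04, 0.05 and 0.13, against a median shift of 0.27. The size of the differences depended on the background step. With an offset of 10 those of miR-18a, miR-18b and miR-17-3p were -0.47, -0.46 and -0.40. With plain subtraction and a floor of 32 they were -0.93, -0.75 and -0.53.

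**Figure D3:**
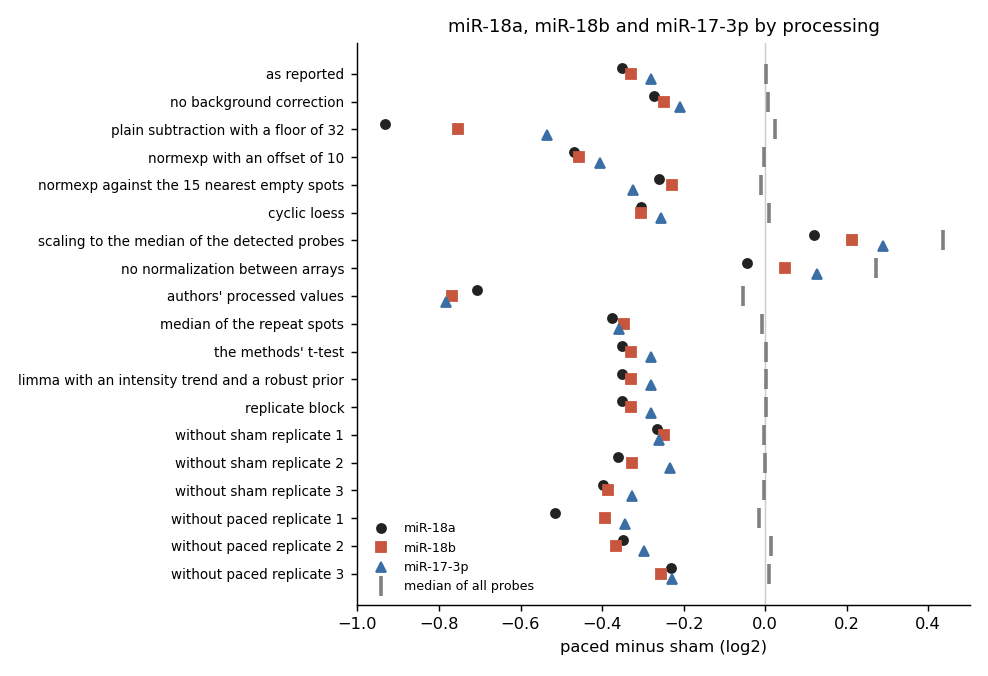
Paced minus sham difference (log2) of the 3 dim members under each way of processing the arrays (1 row each), with the median of all probes as a grey bar. Symbols lie left of the grey bar in every row, and right of 0 only in the rows with scaling to the median of the detected probes and, for 2 of the 3, with no normalization between arrays.

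Members were also compared within each array, as the difference of the log2 values of 2 probes. The size of such a difference also holds the brightness of the probes, so only its change between groups is read. With 3 against 3 animals the exact permutation test (two-sided) cannot give a p below 0.1, and after adjustment over the 21 pairs the lowest p was 0.21, so no pair passed.

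The closest pair was miR-20b and miR-17-5p, which differ by U10C and come from different chromosomes. Their difference was 0.10, 0.08 and 0.11 in the sham animals and 0.11, 0.13 and 0.20 in the paced animals. It varied by only 0.12 over the 6 arrays, and its change of 0.05 left the groups without overlap by a small margin (exact permutation p = 0.1, adjusted p = 0.21). miR-106a minus miR-17-5p varied by 0.15 over the arrays and miR-20a minus miR-17-5p by 0.43, from 0.58 in paced replicate 1 to 0.16 in paced replicate 2. These miR-20a values include the low repeat spot of 8.36 in sham replicate 1. The repeat-spot medians of that animal were 10.82 for miR-20a and 10.15 for miR-17-5p, so the range depends on that spot. miR-18b minus miR-18a was -0.26, -0.23 and -0.28 in the sham animals and -0.40, -0.15 and -0.15 in the paced animals, a change of 0.02 (exact permutation p = 1, adjusted p = 1).

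Both arms of the miR-17 hairpin could be set against each other. miR-17-3p minus miR-17-5p was -2.73, -2.51 and -2.82 in the sham animals and -3.11, -2.91 and -2.98 in the paced animals. The measured change was -0.32. Within the chromosome X cluster, miR-18b minus miR-20b was -2.59, -2.57 and -2.81 in the sham animals and -3.14, -2.92 and -3.14 in the paced animals, a measured change of -0.41. Since miR-17-3p and miR-18b were not above background on any paced array, these 2 changes rest on paced levels that are only bounded, and no direction is read from them. Within the chromosome 11 cluster, miR-18a minus miR-20a changed by -0.32, and the groups overlapped (exact permutation p = 0.2, adjusted p = 0.35). With the median of the repeat spots that change was -0.23. Of the 12 pairs of a dim and a bright member, 9 did not overlap between groups, with changes from -0.44 to -0.25 over all 12, while this held for 1 of the 6 pairs among bright members and for 0 of the 3 pairs among dim members. The 9 pairs set the 3 dim members against miR-17-5p, miR-20b and miR-106a, whose probes are nearly identical, and are not independent. Over all pairs of a probe above background on some arrays and one above it on all, the paced values lay below the sham values without overlap in 11.4%, and the share among the members' pairs rests on the same dim values. Without normalization between arrays, and likewise with scaling to the median of the detected probes, the changes turned positive, to 0.31 for both arms of miR-17, 0.20 for miR-18b and miR-20b, and 0.24 for miR-18a and miR-20a.

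**Figure D4:**
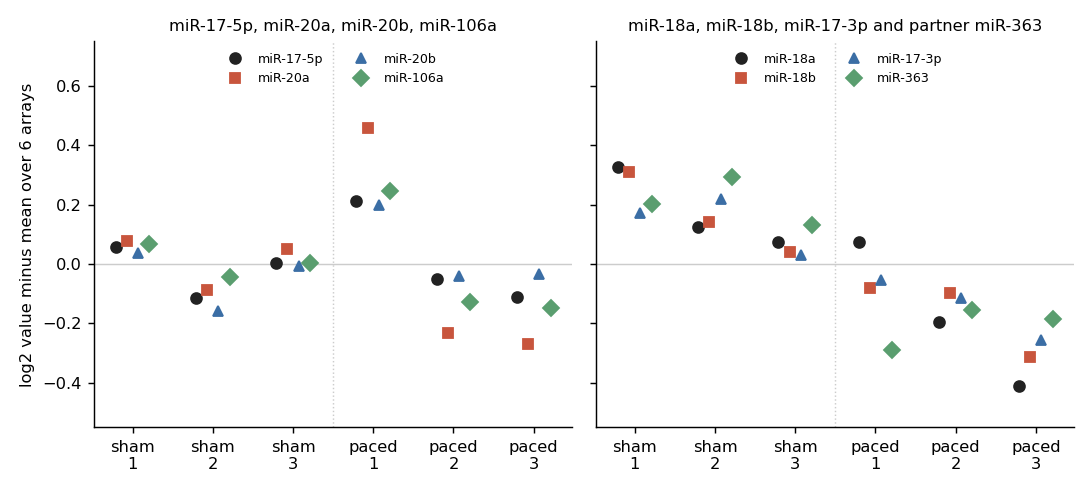
Log2 value of each probe minus its own mean over the 6 arrays, by animal, for the 4 members with the seed AAAGUGC (left) and for the 3 dim members with the cluster partner miR-363 (right). On the left all probes are highest in paced replicate 1, and on the right every sham value is above 0 and every paced value but that of miR-18a in paced replicate 1 is below 0.

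Over the 6 arrays, miR-20b was the probe closest in pattern to miR-17-5p, with a root mean square difference of 0.04 between values centred on their own means. Among the 100 probes above background on all arrays that are no members, the closest to miR-17-5p were miR-152 (0.05), let-7i (0.06) and miR-103 (0.07), against a median of 0.16. The closest to miR-20b were let-7i (0.06), miR-99a (0.07) and miR-152 (0.08), and those to miR-106a were let-7i (0.06), miR-28-3p (0.06) and miR-103 (0.07). For miR-20a no probe was as close. Its nearest was miR-193a-5p (0.09), followed among probes that are no members by miR-151-3p and miR-130b (0.11 and 0.12). Of the members, miR-106a was at a distance of 0.11 from it, miR-17-5p, which shares its transcript, at 0.14, and miR-20b at 0.17. The distances of miR-20a include the low repeat spot of sham replicate 1.

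Of the partners, which are the other miRNAs of these clusters and relatives of theirs with genes elsewhere, the array had probes for miR-19a, miR-19b, miR-92a, miR-363 and both arms of miR-92b, and none named miR-25 or miR-106b. The unadjusted threshold was passed by 1 of the 6, against 10.6% of all probes, and the adjusted one by none. miR-363, which lies on chromosome X and shares its seed with miR-92a, had sham values of 7.85, 7.94 and 7.78 and paced values of 7.36, 7.49 and 7.46. The groups did not overlap, and the difference was -0.42 (SE 0.08, unadjusted p = 0.000965, adjusted p = 0.134). It too was dim, and 2 sham arrays and 1 paced array met the background criterion. Among all probes well above background on some but not all arrays, 20% were lower in paced animals at the unadjusted threshold. In 22.7% of them all paced values lay below all sham values. The bright partners differed less, with -0.10 (SE 0.13) for miR-19b, -0.05 (SE 0.09) for miR-92a, known to restrain vessel growth, and 0.06 (SE 0.12) for miR-92b-3p, which has a gene of its own on chromosome 4. miR-19b and miR-92a have a gene in each cluster, so their probes cannot be assigned to one of them. Among the dim partners, miR-19a (-0.01, SE 0.12) was above background in 1 sham animal and no paced animal, and miR-92b-5p (0.06, SE 0.11) on no array.

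Within the chromosome X cluster the bright probes of miR-20b and miR-106a thus differed by 0.08 and -0.02 between groups and the dim probes of miR-18b and miR-363 by -0.33 and -0.42. Within the chromosome 11 cluster the values were 0.03 and -0.03 for miR-17-5p and miR-20a, and -0.35, -0.28 and -0.01 for the dim probes of miR-18a, miR-17-3p and miR-19a.

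**Figure D5:**
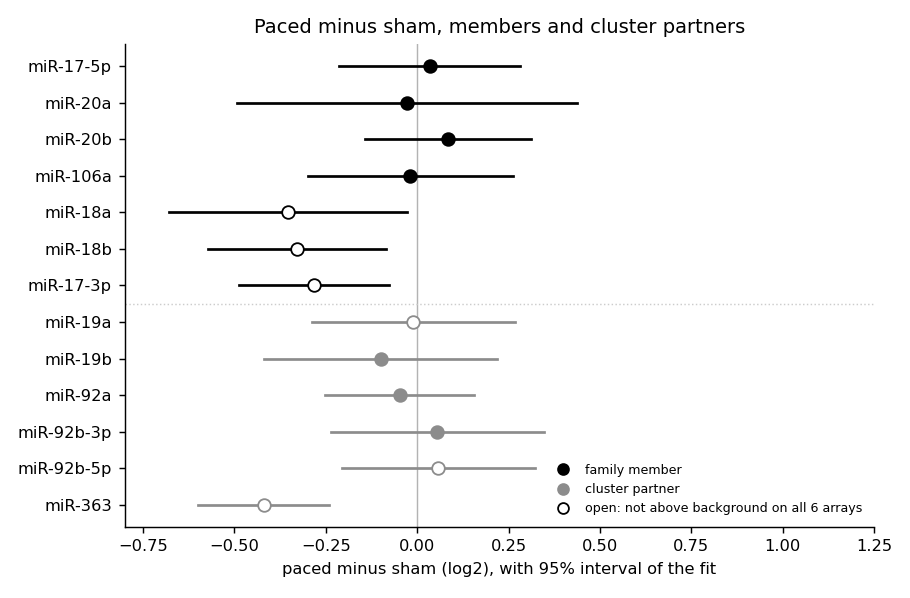
Paced minus sham difference (log2) with the 95% interval of the limma fit for the 7 members (black) and the 6 cluster partners (grey); open symbols mark probes not well above background on all 6 arrays. The intervals of miR-18a, miR-18b, miR-17-3p and miR-363 lie below 0 before adjustment for 322 probes, and all filled symbols lie between -0.10 and 0.08.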

How the data were processed

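A service provider hybridized total LA RNA of 3 sham and 3 paced pigs to 1 pig miRNA array per animal, with Cy3 staining and no pooling. The authors deposited scanner intensities, linear medians of each of 3968 spots from which no background had been removed, and processed intensities, 1 per probe and array, whose background and normalization steps are not given in the sources used here. These processed values served as an alternative.

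The members, the partner list and the marker lists were chosen with earlier results of these data known. The named miRNAs are the members, the partners, and the 3 probes closest in pattern to each member well above background on all arrays. Markers are named to describe the tissue.

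Scanner intensities of all spots were corrected with normexp (limma 3.58.1, R 4.3.3, offset 50). The 2898 miRNA spots were put on the log2 scale, quantile-normalized and averaged over 9 repeat spots, and groups were compared with lmFit and eBayes over 322 probes with Benjamini-Hochberg adjustment. Alternatives changed 1 choice at a time: background, normalization, repeat-spot summary, a filter on dim probes, the test, the replicate number as a block, and each animal left out. A bound sets the sham mean against, for each paced array, the higher of the probe's own value and the lowest value among probes well above background. Arrays measure no read depth, and their number limits the precision. The fit was tested on simulated data with a log2 shift of 1 and the same spread for every probe. That shift is larger than any difference of the members, so the test does not cover small differences of dim probes. Pairs were tested with scipy 1.17.1 in Python 3.11.15, and figures were drawn with matplotlib 3.10.9. The probes were matched by name to Sscrofa11.1 genes from RefSeq.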

Additional observations from a re-analysis of the deposited data

How the results depend on the processing

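No member and no partner passed the adjusted threshold under any alternative, with 2 exceptions: when arrays were scaled only to the median of their detected probes, miR-19a was at 0.60 and miR-92b-5p at 0.58, with the median probe shifted by 0.44. With this scaling 181 probes had an unadjusted and 171 an adjusted p under 0.05, 0 members had an unadjusted one, and miR-18a, miR-18b, miR-17-3p and miR-363 were at 0.12, 0.21, 0.29 and 0.068. Every member and partner had the same SE of 0.19 in this fit, so these p-values hold no spread of a probe's own. Without normalization 15 probes and 0 members passed the unadjusted threshold, miR-18b was at 0.050, miR-17-3p at 0.13 and miR-19a at 0.43. Here too the members and partners shared a single SE, 0.33. Under both settings, within-array changes were 0.20 for miR-18b minus miR-20b, 0.24 for miR-18a minus miR-20a and 0.31 for miR-17-3p minus miR-17-5p. The cause was not tested. Plain subtraction put miR-19a at 0.16. With the filter on dim probes 5 probes and 0 members passed the unadjusted threshold, because none of the 3 dim members passed the filter. With the 15 nearest empty spots, and with the authors' processed values, 1 member passed the unadjusted threshold. With an animal left out, 19 to 67 probes passed the unadjusted and 0 to 9 the adjusted threshold, the highest counts being without paced replicate 1 and the lowest unadjusted count without sham replicate 2. Members at the unadjusted threshold then numbered 1 to 4, and miR-19a ranged from -0.075 to 0.12. The deviations of same-numbered sham and paced animals had correlations of 0.17, -0.01 and 0.21. Those of differently numbered animals ranged from -0.24 to 0.09. With so few animals these values do not settle whether the numbers pair them. With the replicate number as a block 33 probes and 3 members passed the unadjusted threshold. Dim probes near the empty-spot signal are limited by background.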
